A study of Schizosaccharomyces pombe with 3 samples.

Results

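The chromatin immunoprecipitation sequencing (ChIP-seq) library of Med7 was set directly against that of RNA polymerase II (Pol II) in the fission yeast Schizosaccharomyces pombe. The 2 libraries are 2 of the 3 of the series, and their ratio was taken over 3 windows of each of the 5113 protein-coding genes in the RefSeq annotation of assembly ASM294v3. The Med7 library came from TAP-tagged cells whose chromatin was bound to IgG Sepharose beads. The Pol II library came from cells with no TAP tag, precipitated with the antibody CTD(4H8) to the C-terminal domain of the polymerase on Protein G beads. The third library, a bead control from untagged cells with no antibody, takes no part in the ratio and is given beside it as background. All 3 carry the strain label 972 h- and were grown to log phase in YEA medium with 2% glucose. Each group has 1 library, so no difference below has a replicate check and no p-value is given. The ratio compares libraries that differ in tag, antibody and beads at once, and these cannot be told apart. An untagged library on IgG beads was not analysed here.

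Mediator is a large complex that carries signals from DNA-bound transcription factors to Pol II and its general factors at the start of genes. Med7 belongs to its middle module, which is joined to the head that contacts the polymerase. Pol II itself loads at the promoter, travels through the gene body and is released beyond the 3′ end, so its ChIP signal marks the transcribed length of active genes. Glycolytic, ribosomal protein and histone genes are among those a dividing yeast cell transcribes most.

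The files held 917064 Med7 reads, 1829877 Pol II reads and 678947 control reads, and mitochondrial DNA took 23.8% of the Med7 reads, 7.7% of the Pol II reads and 6.8% of the control reads. Levels are therefore given as RPM, reads per 1000000 nuclear reads outside the ribosomal DNA, of which there were 696101 for Med7, 1687058 for Pol II and 630825 for the control. Read counts in 11880 unique bins of 1 kb had a ratio of SD to mean of 0.231 for Med7, 1.35 for Pol II and 0.219 for the control. The Med7 library was thus about as even along the genome as the control, and the Pol II library was not.

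The promoter window took the 500 bp before the annotated start of the transcript and its first 100 bp. The body was the transcript without its first and last 100 bp, and the 3′ end window ran from the last 100 bp to 500 bp beyond the end. Levels of single genes are RPM in the whole window unless given per kb. Bodies differ in length from the other windows, so such levels compare between libraries within a window and not between windows. The ratios do not depend on window length. Windows entered the comparison with 20 or more reads of Med7 and Pol II together and with 90% or more unique positions. A window was called high at a ratio of 2 or more with the lower bound of its 95% interval above 1, and low at 0.5 or less with the upper bound under 1. These intervals are exact conditional binomial ones and cover counting error only. Windows of neighbouring genes can share bases, so in sums over genes a read can count more than once. Intervals of sums and of profile bins take every count as separate and are likely too narrow.

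Upstream sequences of 6 genes are shown first, as examples of genes named in the results below. Each is the 250 bases before the annotated transcript start, read 5′ to 3′ along the gene from RefSeq assembly ASM294v3, and none overlaps another protein-coding transcript. Annotated long non-coding RNA genes overlap those of SPBC23G7.10C, mei2, pmp3 and plb1. Such genes overlap 76.9% of all usable promoter windows, and overlaps named below are with protein-coding transcripts only. Capitals mark matches, on either strand, to 7 short motifs that were searched: TATAAA (bound by the TATA-binding protein), CAGTCACA (HomolD, of ribosomal protein promoters), ACCCTACC (HomolE), ACGCGT (the box of cell cycle factor MBF), TGACGT (the core bound by stress factor Atf1/Pcr1), AACCCT (of histone promoters) and GAANNTTC (the core of heat shock elements). SPBC23G7.10C, a flavin oxidoreductase gene, had the promoter window with the highest lower bound on its ratio, and its upstream bases lie at chrII:2119479-2119728, minus strand. The gene mei2, whose RNA-binding product starts meiosis, had the highest promoter ratio of the meiosis list (chrI:4515026-4515275, minus strand). The ribosomal protein gene rps1702 was among the highest of its list (chrIII:917602-917851, plus strand). The gene pmp3 of a small plasma membrane proteolipid had one of the largest ratios of promoter over body (chrII:888641-888890, minus strand). The enolase gene eno101 had the lowest body ratio (chrII:2200946-2201195, plus strand), and the lysophospholipase gene plb1 the lowest promoter ratio (chrI:1076694-1076943, minus strand).
SPBC23G7.10C: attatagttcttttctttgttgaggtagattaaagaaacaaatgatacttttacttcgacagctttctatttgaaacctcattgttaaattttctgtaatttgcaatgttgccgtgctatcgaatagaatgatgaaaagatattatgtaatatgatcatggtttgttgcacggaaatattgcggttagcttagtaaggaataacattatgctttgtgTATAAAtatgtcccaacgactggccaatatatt
mei2: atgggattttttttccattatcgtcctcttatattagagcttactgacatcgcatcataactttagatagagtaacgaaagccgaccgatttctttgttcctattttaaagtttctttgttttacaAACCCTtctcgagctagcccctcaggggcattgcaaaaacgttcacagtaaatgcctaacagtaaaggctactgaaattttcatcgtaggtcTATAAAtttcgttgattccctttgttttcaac
rps1702: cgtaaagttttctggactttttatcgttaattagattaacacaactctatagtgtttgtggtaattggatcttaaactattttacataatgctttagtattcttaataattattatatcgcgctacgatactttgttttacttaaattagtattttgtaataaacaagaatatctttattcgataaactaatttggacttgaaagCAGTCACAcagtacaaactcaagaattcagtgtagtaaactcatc
pmp3: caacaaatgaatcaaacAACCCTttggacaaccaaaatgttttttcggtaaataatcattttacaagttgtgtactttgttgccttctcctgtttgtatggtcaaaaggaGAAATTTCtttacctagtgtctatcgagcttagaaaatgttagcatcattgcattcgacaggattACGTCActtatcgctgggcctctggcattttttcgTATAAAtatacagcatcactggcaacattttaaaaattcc
eno101: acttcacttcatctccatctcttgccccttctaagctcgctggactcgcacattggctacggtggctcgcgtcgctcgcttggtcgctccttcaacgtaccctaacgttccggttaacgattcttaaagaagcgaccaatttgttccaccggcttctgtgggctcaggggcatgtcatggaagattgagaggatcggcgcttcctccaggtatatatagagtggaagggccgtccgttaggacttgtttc
plb1: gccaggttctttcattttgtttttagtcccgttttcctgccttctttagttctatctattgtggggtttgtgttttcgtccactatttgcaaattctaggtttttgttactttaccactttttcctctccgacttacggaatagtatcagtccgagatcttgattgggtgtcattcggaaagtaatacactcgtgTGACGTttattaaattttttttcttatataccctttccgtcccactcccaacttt

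The SPBC23G7.10C and mei2 sequences held TATAAA 33 and 32 bases before the start, and that of pmp3 held it 40 bases before. The rps1702 sequence held the HomolD box 45 bases before the start. The eno101 sequence held none of the 7 motifs, and that of plb1 held TGACGT once and no other. Their GC content ran from 27.2% for rps1702 to 53.2% for eno101.

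Relative to Pol II, Med7 reads were most plentiful in promoter windows and least in gene bodies. The typical promoter held 91.0 RPM per kb of Med7, 48.9 of Pol II and 66.1 of the control (medians of 4944 usable windows). The typical body held 77.8 RPM per kb of Med7, 60.8 of Pol II and 87.2 of the control (4897 bodies), and the typical 3′ end window 93.4, 65.2 and 79.3 (4973 windows). From promoter to body the Med7 median was thus lower and the Pol II and control medians higher. The median ratio of Med7 to Pol II was 1.84 in promoters, 1.27 in bodies and 1.38 at 3′ ends. In the control over Pol II the same medians were 1.33, 1.39 and 1.19, so Med7 stood above the control at both ends of genes and below it in bodies.

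Summed over all usable windows, the ratio was 1.564 in promoters (95% interval 1.555 to 1.573), 0.888 in bodies (0.886 to 0.891) and 1.066 at 3′ ends (1.06 to 1.071). Reads in bases that windows share enter these sums more than once, so the intervals are likely too narrow. The summed ratio of the control to Pol II was 1.148 in promoters, 1.005 in bodies and 0.921 at 3′ ends. The body sum fell under 1 while the median body stayed above it, because the sum gives most weight to bodies with many Pol II reads. The level of these ratios depends on the scaling. When the libraries were scaled on their median 1 kb bin, each log2 ratio moved by -0.49, which put the 3′ end sum at 0.76. The within-gene comparisons below do not depend on the scaling.

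**Figure D1:**
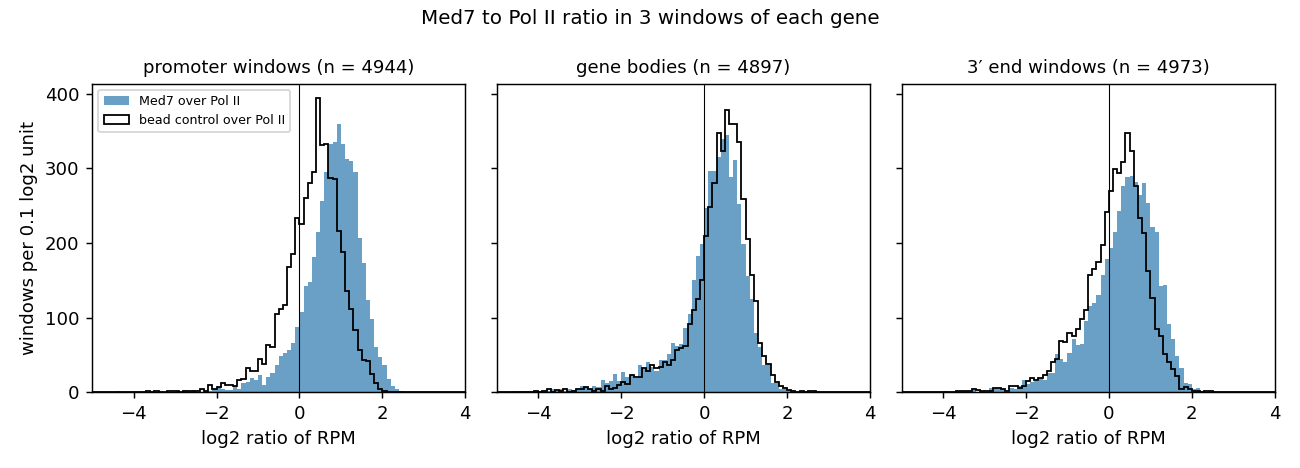
Number of windows (vertical axis) by log2 ratio of RPM (horizontal axis) for Med7 over Pol II (filled) and for the bead control over Pol II (outline), in promoter windows, gene bodies and 3′ end windows. The Med7 distribution lies to the right of the control in promoters (median log2 0.88 and 0.41, ratios 1.84 and 1.33). A tail of low ratios is longest in bodies for both.

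The Med7 ratio was high in 2018 promoter windows, 40.8% of those tested, and low in 115, 2.33%. The control over Pol II gave 704 high promoters, 14.2%, and 215 low ones, 4.35%. In bodies Med7 over Pol II was high in 530 genes (10.8%) and low in 460 (9.39%), against 681 high (13.9%) and 323 low (6.6%) for the control. At 3′ ends it was high in 1000 windows (20.1%) and low in 338 (6.8%), against 450 high (9.05%) and 420 low (8.45%) for the control. High Med7 ratios were thus more frequent than in the control at promoters and 3′ ends and less frequent in bodies. These counts depend on the scaling: on the median 1 kb bin the high and low counts of Med7 over Pol II were 602 and 233 in promoters, 83 and 739 in bodies, and 205 and 681 at 3′ ends, so that low windows outnumbered high ones in bodies and at 3′ ends. Of the 4772 genes usable in all 3 windows, 112 were high in every one and 30 were low in every one. The promoter had the highest of the 3 ratios in 2960 genes (62.0%), the 3′ end in 1224 (25.6%) and the body in 588 (12.3%).

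The variation of the ratio between genes followed Pol II more than Med7. Across promoter windows the SD of the log2 level was 0.36 for Med7, 0.62 for Pol II and 0.43 for the control, and counting alone would give about 0.24, 0.21 and 0.3. Across bodies these SDs were 0.29, 0.81 and 0.26, with 0.18, 0.13 and 0.18 from counting. Med7 and Pol II levels were nearly unrelated across genes, with Spearman's rho of 0.11 over 4944 promoters, -0.04 over 4897 bodies and 0.14 over 4973 3′ ends. The ratio had rho of -0.78, -0.89 and -0.85 with the Pol II level that is its denominator and of 0.48, 0.42 and 0.34 with Med7 in these windows. Both levels are parts of the ratio, so the signs of these rho values are built in and are no separate result. A gene with a low ratio was, as a rule, one with many Pol II reads. These values are across genes, which are not replicates and which share both libraries.

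Along the 3001 genes of at least 1500 bp, the ratio peaked upstream of the transcript start. In the bin from -150 to -101 bp, Med7 gave 4.49 RPM per gene, Pol II 2.29 and the control 2.74, for a ratio of 1.966 (1.913 to 2.02) against 1.199 for the control over Pol II. In the bin from 950 to 999 bp inside the gene, Med7 gave 3.61 RPM per gene, Pol II 4.29 and the control 4.53. The ratio there was 0.842 (0.82 to 0.864), the lowest of the bins around the start, against 1.054 for the control. Between these 2 bins the Med7 level was higher upstream of the start, whereas Pol II and the control were both higher inside the gene.

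Around the transcript end the ratio was lowest, 0.774 (0.755 to 0.794), from -500 to -451 bp and highest, 1.196 (1.166 to 1.226), from 250 to 299 bp beyond it. Those bins held 3.82 and 4.42 RPM per gene of Med7, 4.93 and 3.69 of Pol II, and 4.5 and 3.92 of the control. Without the 5% of genes with the most Pol II body reads, the peak upstream of the start was 2.08 (2.021 to 2.14) and the lowest bin around the start 1.067 (1.038 to 1.097). The peak upstream was also higher before divergent starts, where the next gene upstream runs the other way, at 2.236 (2.152 to 2.324) in 1622 genes, than before tandem starts at 1.726 (1.66 to 1.795) in 1379 genes. The control over Pol II differed in the same direction, at 1.386 before divergent and 1.034 before tandem starts.

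**Figure D2:**
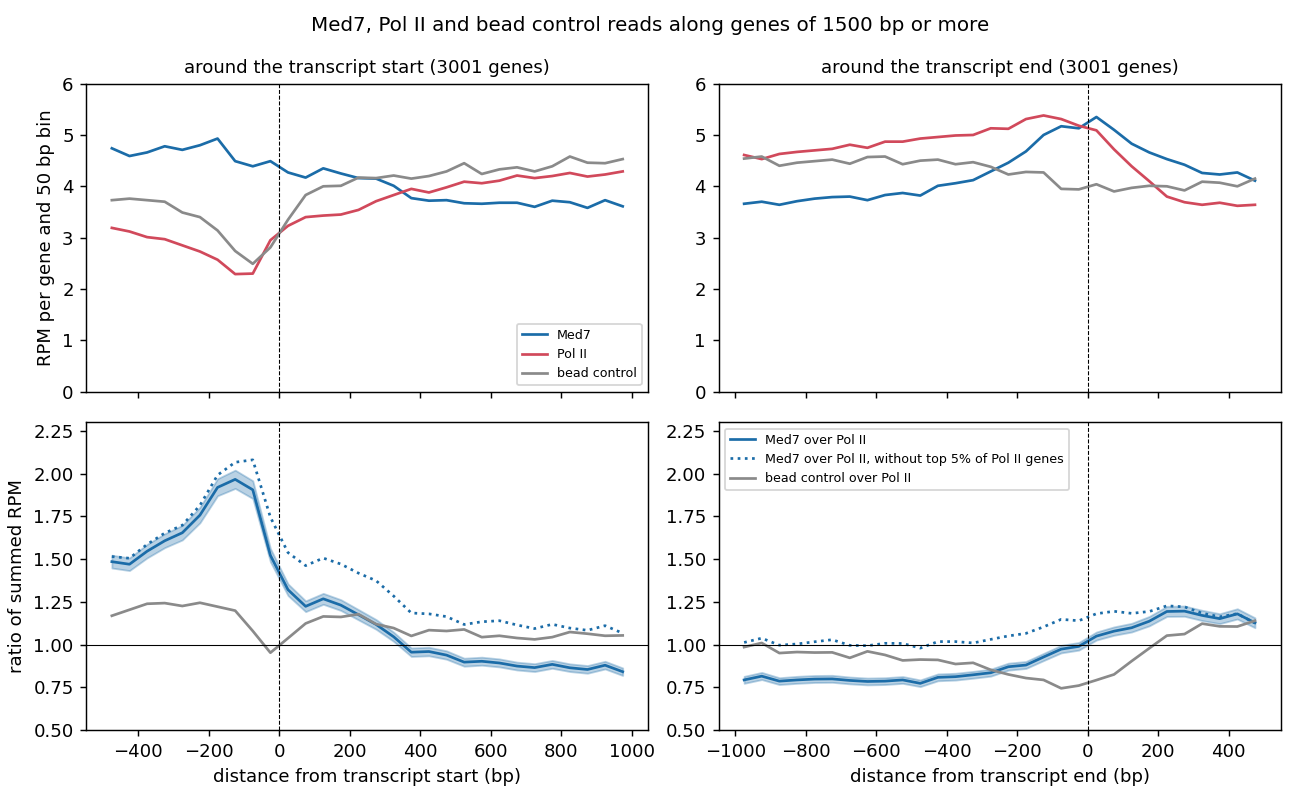
RPM per gene and bin of 50 bp (upper row) and ratio of the summed RPM (lower row) against the distance from the transcript start (left) and end (right), for 3001 genes. Med7 is blue with its 95% counting interval shaded, Pol II red, the bead control grey, and the dotted line leaves out the 5% of genes with the most Pol II body reads; the Med7 ratio peaks at 1.966 upstream of the start, and the control ratio there is 1.199.

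Within single genes, the promoter ratio was divided by the body ratio, which removes the library scaling. This change had a median of 1.51 over 4826 genes and was above 1 in 79.1% of them, against a median of 0.999 and 49.9% for the control over Pol II. It was high in 1484 genes, 30.8%, and low in 150, 3.11%, whereas the control gave 390 high (8.08%) and 397 low (8.23%). The control thus split evenly, and Med7 leaned to the promoter. Where the promoter window overlaps no other protein-coding transcript, the median change was 1.77 over 2172 genes.

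Base composition moved with this change. The Med7 level was lower where GC was higher: bodies in the lowest GC quintile held a median of 89.2 RPM per kb of Med7 and those in the highest 67.4, while the control held 84.2 and 90.1 and Pol II 54.5 and 83.3. Promoters are poorer in GC than bodies. In windows of the same GC, 36 to 38%, promoters held 79.0 RPM per kb of Med7 and bodies 79.6, promoters 48.4 of Pol II and bodies 59.3, and promoters 63.4 of the control and bodies 86.9. At this GC the Med7 level was thus nearly the same in promoters and bodies, and the other libraries were lower in promoters. In the 737 genes whose promoter and body lie within 2 points of GC, the median change was 1.34 for Med7 and 1.06 for the control, and 171 genes (23.2%) were high. The part of GC in the change was not tested beyond these values.

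**Figure D3:**
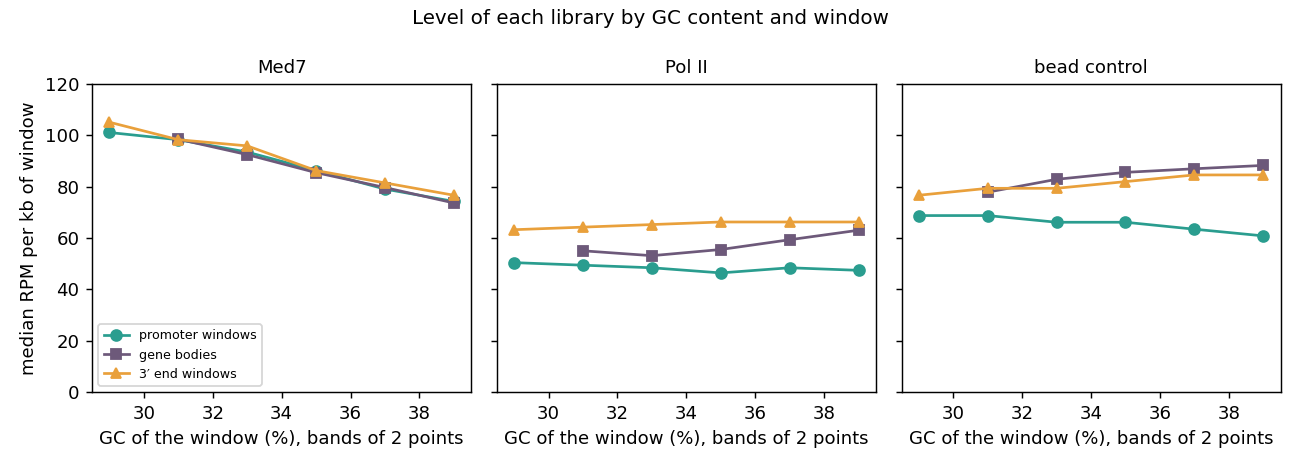
Median RPM per kb of window (vertical axis) against GC content of the window in bands of 2 points (horizontal axis) for Med7, Pol II and the bead control; circles are promoter windows, squares gene bodies and triangles 3′ end windows, and bands of under 50 windows are left out. The Med7 lines lie close together and are lower at higher GC, to 74.2 in promoters and 73.6 in bodies at 38 to 40%, while promoters lie below bodies for Pol II and the control.

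The 5 within-gene changes with the highest lower bounds were those of genes with more Pol II than Med7 in their bodies. Body Pol II is part of the change, so the ranking favours such genes. The Hsp70 chaperone gene ssa2 (III, 2057043 to 2059331, plus strand) had 83.3 RPM of Med7, 87.1 of Pol II and 30.1 of the control in its promoter window, which overlaps ppe1. In its body, a longer window, it had 144 RPM of Med7, 2580 of Pol II and 227 of the control. Its ratio was thus 0.956 (0.693 to 1.3) in the promoter and 0.0556 (0.0451 to 0.0678) in the body, a change of 17.2 (12 to 24.7) against 4.02 for the control. Here the promoter held Med7 and Pol II in near equal amounts, and the body held Pol II far above both others.

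The gene pmp3 (II, 887573 to 888640, minus strand) had 79.0 RPM of Med7, 51.0 of Pol II and 31.7 of the control in its promoter, and 57.5, 612 and 76.1 RPM in its body. Its change was 16.4 (10.3 to 25.9), against 5.05 for the control. The main pyruvate decarboxylase gene pdc101, of fermentation, had 63.2 RPM of Med7, 63.4 of Pol II and 15.9 of the control in its promoter and 105, 1570 and 219 in its body, a change of 15.0 (9.83 to 22.7) against 1.87 for the control; its promoter window overlaps SPAC1F8.08. SPAC343.20 and the ribosomal protein gene rpl6 followed with 16.4 (9.82 to 27.3) and 13.5 (7.96 to 22.9), against 11 and 5.97 for the control; SPAC343.20 overlaps gta2 and rds1, and rpl6 overlaps apn1 and str2. In each of these 5 genes the body held more Pol II than Med7, and the control ratio changed in the same direction and by less.

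The 5 genes with the lowest upper bounds on this change mostly had a promoter window that overlaps a neighbouring gene. The window of dus2, a tRNA dihydrouridine synthase gene, overlaps the Hsp70 gene sks2 and held 69.0 RPM of Med7, 258 of Pol II and 79.3 of the control. Its change was 0.114 (0.0758 to 0.17), against 0.131 for the control. The windows of ppr2 and SPAC1071.09C overlap the ribosomal protein gene rpl701 and the proton pump gene pma1, and their changes were 0.153 and 0.169, against 0.212 and 0.187. The change was 0.176 in zng1, whose window overlaps no coding transcript, against 0.17 in the control, and 0.15 in rmi1, whose window overlaps myh1 and rpl2002, against 0.439. Except in rmi1, the control ratio was nearly as low as that of Med7.

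The 10 promoter windows with the highest lower bounds were low in Pol II and high in Med7. The ranking is on the ratio of the 2, so it picks such windows and these levels are no separate result. Per kb, Med7 ran from 120 RPM in arp8 and mss51 to 170 in SPAC3F10.12C, against 91.0 in the median promoter, and Pol II from 23.7 in arp8 to 36.6 in SPAC3F10.12C, against 48.9. SPBC23G7.10C (II, 2118146 to 2119478, minus strand) had 101 RPM of Med7, 18.4 of Pol II and 60.2 of the control, for a ratio of 5.47 (3.54 to 8.64) against 3.28 for the control. The DNA glycosylase gene mag2 starts from the same intergenic region in the other direction, with 97.7 RPM of Med7, 19.6 of Pol II and 58.7 of the control and a ratio of 4.99 (3.25 to 7.82), so the 2 windows share reads. The gene arp8, of an INO80 remodelling subunit, had 71.8 RPM of Med7, 14.2 of Pol II and 42.8 of the control, a ratio of 5.05 (3.05 to 8.59) against 3.01. The control level also exceeded the Pol II level in these 3 windows.

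The mitochondrial ribosomal protein gene mrpl50 was different in its control. It had 79.0 RPM of Med7, 17.2 of Pol II and 17.4 of the control, for a ratio of 4.6 (2.88 to 7.48) against 1.01 for the control over Pol II, in a window that overlaps SPCC24B10.03. The uncharacterized gene SPAC30D11.02C was alike, with 90.5 RPM of Med7, 19.0 of Pol II and 26.9 of the control and a ratio of 4.77 (3.07 to 7.55) against 1.42. The others were SPAC3F10.12C at 4.65, the valine tRNA ligase gene vrs2 at 4.7, the sterol deacetylase gene say1 at 4.62, the RNA helicase gene ddx27 at 4.56 and mss51 at 4.85. Their control ratios lay between 1.73, in ddx27, and 2.51, in say1. The windows of SPAC30D11.02C and ddx27 lie in 1 divergent region and overlap, so they too share reads.

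The 10 lowest promoter windows were high in Pol II, from 203 RPM per kb in hht2 to 2640 in plb1, which a ranking on the ratio favours. The lysophospholipase gene plb1 (I, 1074331 to 1076693, minus strand) had 77.6 RPM of Med7, 1590 of Pol II and 128 of the control in its promoter, for a ratio of 0.0489 (0.0367 to 0.064). Its body held 274 RPM of Med7, 6010 of Pol II and 420 of the control, a ratio of 0.0456 (0.0394 to 0.0527), so plb1, unlike ssa2, had as low a ratio upstream of its annotated start as within it. The gene but2 and the RNA-binding protein gene csx1 were alike, with promoter ratios of 0.151 and 0.165 and body ratios of 0.111 and 0.141. The within-gene change was 1.08 in plb1, 1.36 in but2 and 1.18 in csx1. An annotated long non-coding RNA gene overlaps the 250 bases upstream of plb1.

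The glyceraldehyde-3-phosphate dehydrogenase gene tdh1 had 30.2 RPM of Med7, 203 of Pol II and 22.2 of the control in its promoter, a ratio of 0.148 (0.0907 to 0.23), and its window overlaps no other coding transcript. The remaining 6 of these windows overlap another transcript. SPAPB18E9.05C at 0.0866 overlaps the cell surface glycoprotein gene pfl2, SPCC417.15 at 0.125 overlaps SPCC417.16, SPAC1071.09C at 0.149 overlaps pma1, and rps1602 at 0.152 overlaps rpl13. The divergent histone genes hhf2 at 0.165 and hht2 at 0.166 reach into each other. Of all 115 low promoters, 89 (77.4%) belonged to, or overlapped, a gene whose body was in the top 5% for Pol II, against 6.63% of all usable promoters. Pol II is the denominator of the call, so this excess is in part built in.

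The 10 bodies with the lowest upper bounds included those of 5 genes of glycolysis and fermentation. The gene eno101 (II, 2201196 to 2202652, plus strand) had 122 RPM of Med7, 2930 of Pol II and 214 of the control in its body, a ratio of 0.0417 (0.0332 to 0.0517) against 0.0731 for the control. Its promoter had 46.0 RPM of Med7, 161 of Pol II and 36.5 of the control, a ratio of 0.285 (0.191 to 0.412). Phosphoglycerate kinase, pgk1, followed with a body ratio of 0.0493, alcohol dehydrogenase, adh1, with 0.0539, aldolase, fba1, with 0.0553 and phosphoglycerate mutase, gpm1, with 0.0587. The other bodies among these 10 were those of plb1, ssa2, gpd1 of glycerol synthesis (0.065), the heat shock protein gene hsp9 (0.0596) and pma1 (0.0739). In each of the 10 the control ratio was low too, from 0.0607 in hsp9 to 0.0976 in gpd1.

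The 10 bodies with the highest lower bounds had little Pol II, from 13.5 RPM per kb in SPAC9E9.17C to 38.2 in cox16, against a median of 60.8. Bodies with little Pol II are what this ranking picks. The gene shu1, of a haem-binding surface protein, had 54.6 RPM of Med7, 7.71 of Pol II and 47.6 of the control in its body, a ratio of 7.08 (3.69 to 14.5) against 6.17 for the control. The siderophore iron transporter gene str3 lies near it on chromosome I and had 181 RPM of Med7, 45.6 of Pol II and 181 of the control, a ratio of 3.97 (2.96 to 5.34) against 3.96. Med7 and the control were equal in the str3 body, and Pol II was below both in each of these genes.

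The meikin gene moa1, of meiosis I, had 30.2 RPM of Med7, 4.74 of Pol II and 31.7 of the control, a ratio of 6.36 (2.71 to 16.6). The uncharacterized genes SPAC3G6.07, SPCC191.06, SPAPB15E9.06 and SPAC9E9.17C had ratios of 5.18, 5.95, 4.01 and 6.36, and SPAC977.15 had 4.43. The assembly factor gene cox16, of cytochrome c oxidase, had 256 RPM of Med7, 78.8 of Pol II and 139 of the control, a ratio of 3.24 (2.58 to 4.09) against 1.77, and the ubiquinone synthesis gene coq3 had 3.99 against 3.02. In SPAPB15E9.06, too, the control ratio was lower, at 2.07.

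The 3′ end against the body gave a weaker lean. The median change was 1.16 over 4843 genes, above 1 in 59.8%, against a median of 0.885 for the control over Pol II. It was high in 738 genes, 15.2%, and low in 415, 8.57%, against 226 (4.67%) and 666 (13.8%) for the control. It differed with the next gene downstream. Where that gene runs in tandem, the median was 1.25 (control 0.916, 2967 genes), and where it converges 0.987 (control 0.841, 1876 genes). The 3′ end ratio itself was also higher in tandem windows, at 1.52, than in convergent ones, at 1.17. In windows free of other coding transcripts the order was reversed, at 1.7 in 668 tandem and 1.85 in 169 convergent ones. The part of the neighbour's promoter was not tested. In the 2127 genes with no other gene start within 500 bp of the window, the median change was 1.01 against 0.855. In the 917 genes with window and body within 2 points of GC it was 0.936 against 0.899, on the other side of 1.

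The 5 genes with the highest lower bounds on the 3′ end change had bodies with many Pol II reads, which this ranking also favours. The eisosome gene fhn1 had 71.8 RPM of Med7, 38.5 of Pol II and 41.2 of the control at its 3′ end, against 274, 2630 and 311 RPM in its body. Its change was 17.9 (12 to 26.5), against 9.14 for the control, in a window that overlaps vid27. The others were esc1 at 10.8 (control 8.81), the hexokinase gene hxk2 at 9.21 (3.28), the disaggregase gene hsp104 at 9.29 (4.77) and the catalase gene ctt1 at 8.87 (4.34). In all 5 the control changed in the same direction and by less.

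The 5 lowest upper bounds on this change came from windows that overlap a neighbouring gene. They were 0.0391 in SPAC1A6.11 beside plb1, 0.0444 in mug106 beside gpm1, 0.0637 in the securin gene cut2 beside eno101, 0.0555 in SPCC191.06 beside the cytochrome c gene cyc1 and 0.0955 in nas2 beside SPAC2H10.01. The control gave 0.138, 0.175, 0.0987, 0.193 and 0.0983 in the same genes. The highest 3′ end ratio on its own was that of eno102, the second enolase gene, with 64.6 RPM of Med7, 11.3 of Pol II and 47.6 of the control and a ratio of 5.74 (3.29 to 10.4). By lower bound it was followed by spc24, in a window that overlaps vps52, at 4.95 and SPBC115.03 at 4.29. Next by that bound came vps60, which overlaps coq3, at 4.38 and the pyruvate decarboxylase gene pdc102 at 4.32. The lowest were those of mug106 at 0.0629, SPAC27E2.11C at 0.0652, gpm1 at 0.0767, SPAC1A6.11 at 0.0782 and nas2 at 0.0827.

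**Figure D4:**
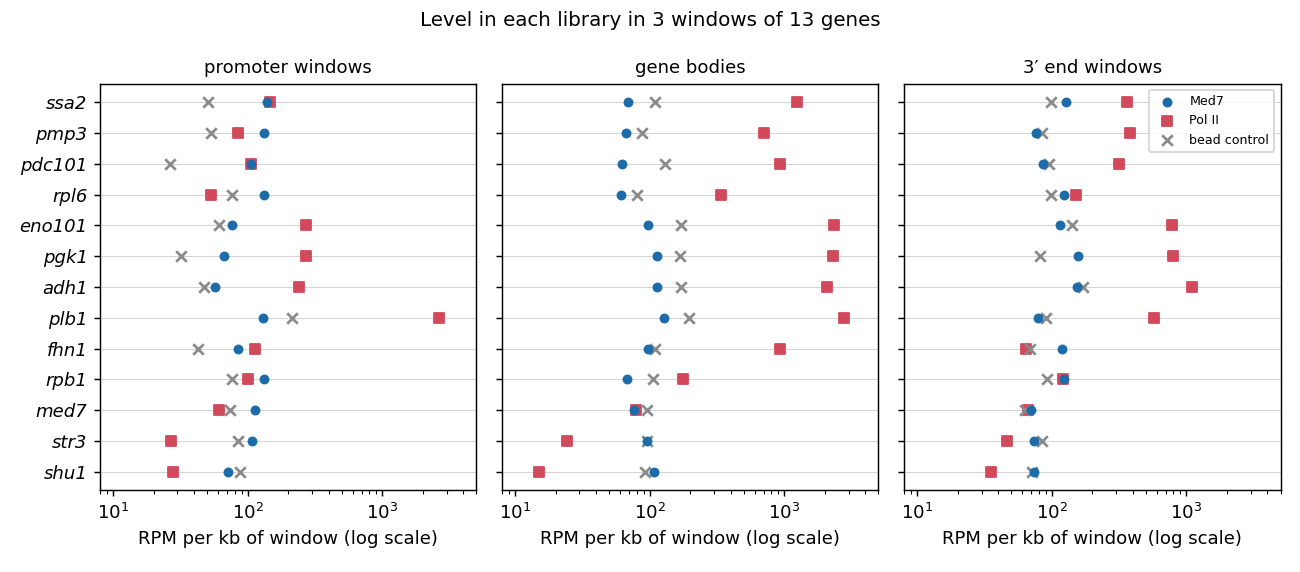
RPM per kb of window on a log axis for Med7 (blue circles), Pol II (red squares) and the bead control (grey crosses) in promoter windows, gene bodies and 3′ end windows of genes named in the text. Med7 keeps to a narrow range in every panel, and Pol II spans the widest range in bodies. For ssa2 the whole body, before division by its length, held 144 RPM of Med7 and 2580 of Pol II.

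Gene groups were described with 21 lists. The 136 cytosolic ribosomal protein genes differed between promoter and body. Their promoters had medians of 83.8 RPM per kb of Med7, 78.0 of Pol II and 63.4 of the control, and their bodies 60.9, 207 and 93.2. The median ratio was 1.08 in 134 promoters and 0.297 in 123 bodies, against 1.84 and 1.27 over all genes, and 0.819 and 0.452 in the control over Pol II. In bodies 108 of 123 were low and 0 high, beside a background of 9.39% low. The within-gene change was high in 104 of 123, beside 30.8% over all genes, with a median of 3.73 against 1.72 in the control. Among promoters 12 were high and 8 low, beside 40.8% and 2.33%: rpl3002 was highest at 2.96 (1.92 to 4.58), rps1702 had 2.87 (1.97 to 4.21) against 0.991 for the control, and rps1602 was lowest at 0.152.

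The HomolD letters CAGTCACA stood in the 250 bases upstream of 85 of these 134 ribosomal protein promoters (63.4%), against 2.65% of all usable promoters. The median promoter ratio was 1.02 in ribosomal protein genes with them and 1.18 in those without. Over all genes the median was 0.987 in the 131 promoters with these letters and 1.86 in the others, and most of the 131 are ribosomal protein promoters. TATAAA stood in 44.7% of all usable promoters, with a median ratio of 1.85, against 1.83 without, so promoters with and without it had close medians.

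The 19 glycolysis and fermentation genes had the lowest median body ratio of the lists, 0.111 in 17 bodies (control 0.166), with 62.6 RPM per kb of Med7, 629 of Pol II and 115 of the control. In their promoters the median was 0.584 against 0.376 in the control, with 9 low and 4 high, beside 2.33% and 40.8% over all genes. The within-gene change was high in 14 of 17, beside 30.8%, with a median of 4.47 (control 1.61). The 4 high promoters were those of adh4 (2.13), pdc201 (2.27), pdc102 (3.03) and pdc202 (3.33), with control ratios of 0.646, 2.59, 2.34 and 2.51. Of these, pdc202 had 63.2 RPM of Med7, 19.0 of Pol II and 47.6 of the control. The list thus held low promoters, such as tdh1 at 0.148 and adh1 at 0.237, and others with ratios above the typical promoter.

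The 16 chaperone genes, with the Hsp70, Hsp90 and small heat shock families, had a median body ratio of 0.271 and a promoter ratio of 0.961, against 0.317 and 0.525 for the control. In bodies 15 of 16 were low, beside 9.39% over all genes. Within genes 12 of 15 were high, beside 30.8%, with a median change of 3.72 (control 1.99). The lowest promoter was that of hsp9 at 0.43 (0.293 to 0.615), and the highest that of the ER Hsp70 gene bip1 at 1.31 (0.896 to 1.9), in a window that overlaps SPAC22A12.17C. GAANNTTC stood upstream of 8 of 15 (53.3%), against 9.43% of all. Of the 8 chaperonin genes of the CCT ring, which folds actin and tubulin, 5 of 7 promoters were high, beside 40.8% over all genes, with a median of 2.25, and 0 of 8 bodies were low, with a median of 1.05. Their within-gene change was high in 4 of 7, with a median of 2.15 (control 1.32).

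The 12 genes of the core stress response, driven by Atf1, were high in the within-gene change in 12 of 12, beside 30.8% over all genes, with a median of 2.97 (control 1.61). In bodies 8 of 12 were low, beside 9.39%, and the median was 0.459 (control 0.584). In promoters 4 of 12 were high and 1 was low, beside 40.8% and 2.33% over all genes. The promoter median was 1.83 (control 1.02), near the 1.84 of all genes. The gene of the factor itself, atf1, had 87.6 RPM of Med7, 42.1 of Pol II and 26.9 of the control in its promoter, a ratio of 2.08 (1.45 to 2.97), and 267, 566 and 325 RPM in its body, a ratio of 0.472 (0.401 to 0.553). The sulfiredoxin gene srx1 had the highest promoter ratio, 3.6 (2.23 to 5.87) against 2.67 for the control, and gpd1 the lowest, 0.428 against 0.425. The 21 cell wall and flocculation genes had a body median of 0.43, with 9 of 16 low, and 12 of 16 high in the within-gene change. In this list gas2 was lowest in the promoter at 0.274 (control 0.154) and pfl4 highest at 4.43 (control 1.29).

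In the histone genes most promoters were low as well as most bodies. Of 11, 8 promoters and 9 bodies were low, beside 2.33% and 9.39% over all genes, with medians of 0.379 and 0.27, against 0.406 and 0.305 for the control. The within-gene change was high in 3 of 11, near the 30.8% of all genes, with a median of 1.58. The 8 low promoters are those of 4 divergent pairs in which each window overlaps the partner gene, such as hta1 at 0.249 and htb1 at 0.283. AACCCT stood upstream of 9 of 11 (81.8%), against 8.47% of all. The promoter of hta2 was not called, at 1.13 in a window that overlaps rsd1, and the H2A.Z gene pht1 was called in neither window, at 1.71 and 1.38. The gene cnp1, of the centromeric histone CENP-A, had the 1 high promoter of the list. Its promoter had 84.8 RPM of Med7, 24.9 of Pol II and 44.4 of the control, a ratio of 3.4 (2.25 to 5.18), in a window that overlaps spc1 and rpr2.

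The 24 CENP-A and kinetochore genes had 12 of 23 promoters high and 0 low, with a median of 2.03 (control 1.47), beside a background of 40.8% high. The highest were sim3, a CENP-A chaperone gene, at 3.5, cnp1 at 3.4 and scm3, of the CENP-A loading factor, at 3.39, and the lowest was ndc80 at 0.836, in a window that overlaps imp2. The 20 heterochromatin and RNA interference genes had 10 of 20 promoters high, beside the same background, with a median of 1.98, with tas3 of the RITS complex highest at 4.26 (2.73 to 6.74).

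The 134 meiosis and sporulation genes had 67 of 133 promoters high and 0 low, beside 40.8% high over all genes, with a median of 2.07 (control 1.49). Of their bodies 34 of 130 were high, beside 10.8%, with a median of 1.61 (control 1.59). The gene mei2 had 44.5 RPM of Med7, 8.3 of Pol II and 33.3 of the control in its promoter, a ratio of 5.37 (2.77 to 10.9). Its control level, too, stood well above that of Pol II. The 10 genes of iron uptake, a list that also holds the repressor gene fep1, had 6 of 10 promoters high, beside 40.8%. Their median was 2.48 (control 1.62). They ran from fio1, whose window overlaps fip1, at 1.49 (control 1.65) to str3 at 4.04 (control 3.17). The 17 mating genes were lower, with 4 of 17 promoters high and a median of 1.53 (control 0.981), against 1.84 over all genes.

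Promoters of the 8 amino acid permease genes had Med7 ratios well above those of the control: 6 of 8 were high, beside 40.8% over all genes, with a median of 2.37 against 0.931 in the control. Their medians were 99.4 RPM per kb of Med7, 42.0 of Pol II and 44.9 of the control. The amino acid transporter gene aat1 had 102 RPM of Med7, 26.7 of Pol II and 17.4 of the control in its promoter, a ratio of 3.82 (2.6 to 5.69), and 161, 318 and 203 RPM in its body, a ratio of 0.505 (0.409 to 0.621). The lowest was per1 at 0.991 (0.69 to 1.4). The 8 hexose transporter genes spread widely, with 2 of 7 promoters high and 2 low, beside 40.8% and 2.33% over all genes. Their median was 1.46, and they ran from ght2 at 0.233 (control 0.224) to ght3 at 4.33 (control 2.96). The 9 phosphate and thiamine genes ran from tgp1 at 0.266 (control 0.647) to pho4 at 3.46 (control 2.1), with a median of 1.75.

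The 11 targets of MBF, which drives genes of DNA replication at G1/S, had 7 of 11 promoters high, beside 40.8% over all genes, with a median of 2.16 (control 1.51). They had 6 of 11 high in the within-gene change, beside 30.8%, with a median of 2.02 (control 0.931). The highest was ssb1, of replication protein A, at 4.85 (2.84 to 8.49) against 2.67 for the control, in a window that overlaps mik1. The cohesin gene rad21 followed at 4.36 (2.74 to 7.06) against 3.74. The lowest was nrm1 at 0.624 against 0.688, in a window that overlaps oga1. ACGCGT stood upstream of 5 of 11 (45.5%), against 2.67% of all. The 13 translation factor genes had 5 of 8 bodies low, beside 9.39%, and a promoter median of 0.939. The 50 mitochondrial ribosomal protein genes had 22 of 50 promoters high and a median of 1.95, and the 19 proteasome genes 6 of 17 and 1.9, both near the background of 40.8% high.

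The genes of the 2 complexes compared were, like most genes, mostly called neither high nor low. Over all genes 40.8% of promoters were high and 2.33% low, and of bodies 10.8% were high and 9.39% low. The 21 Mediator subunit genes had a promoter median of 1.76 (control 1.23) with 6 of 21 high, beside 40.8% over all genes, and a body median of 1.42 (control 1.49) with 1 high and 0 low. The gene med7 had 67.5 RPM of Med7, 36.8 of Pol II and 44.4 of the control in its promoter, a ratio of 1.84 (1.23 to 2.73), and 247, 253 and 308 RPM in its body, a ratio of 0.979 (0.815 to 1.17), with windows that overlap doa10 upstream and ade8 and SPBC14F5.10C in the body. It is the tagged locus, and where the tag lies is not given in the labels. The 12 Pol II subunit genes had a promoter median of 1.48 with 3 of 11 high, and a body median of 0.983 with 1 high and 1 low. Their largest subunit gene, rpb1, had 79.0 RPM of Med7, 59.9 of Pol II and 46.0 of the control in its promoter, which overlaps hmo1, a ratio of 1.32 (0.933 to 1.85), and 366, 961 and 568 RPM in its body, a ratio of 0.381 (0.333 to 0.435).

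**Figure D5:**
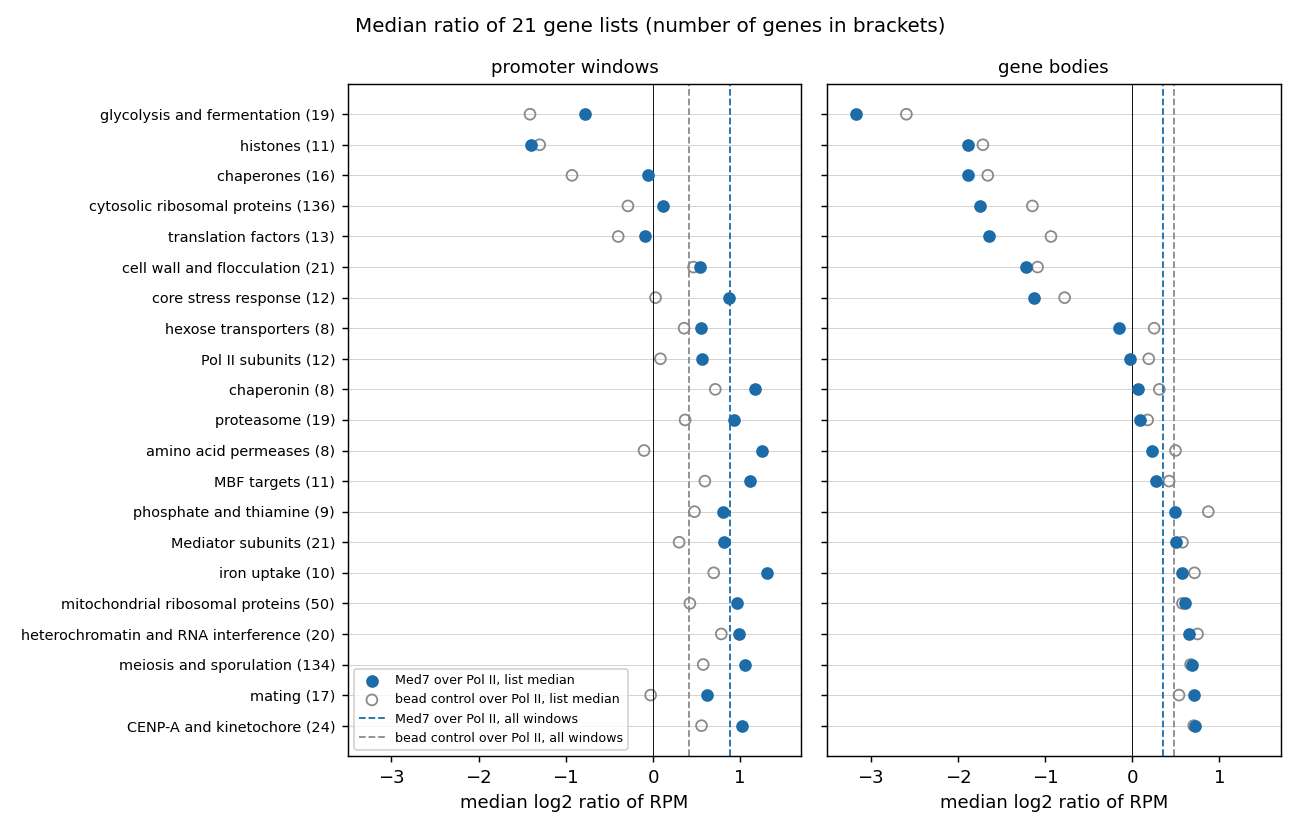
Median log2 ratio of RPM for 21 gene lists (rows, number of genes in brackets) in promoter windows (left) and gene bodies (right); filled points are Med7 over Pol II, open points the bead control over Pol II, and dashed lines the medians of all windows. In bodies glycolysis lies lowest, at log2 -3.18 (ratio 0.111), and ribosomal protein genes lie at -1.75 (ratio 0.297). The ribosomal protein promoters lie at log2 0.11 (ratio 1.08).

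The arrangement of neighbours went with a difference in Pol II more than in Med7. Promoters with a divergent neighbour had a median ratio of 2.01 (2666 genes), with 88.6 RPM per kb of Med7, 44.5 of Pol II and 63.4 of the control. Those with a tandem neighbour had 1.64 (2278 genes), with 93.4, 56.3 and 68.7. The control ratio was 1.43 and 1.22 in the same groups. Where windows overlapped no other coding transcript, the medians were 2.13 in 1557 divergent and 1.86 in 683 tandem promoters. Chromosomes differed little, with promoter medians of 1.83 on chromosome I, 1.85 on II and 1.86 on III.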

How the data were processed

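The deposited files list, per library, 1 row per aligned read with its first and last base and strand (other units: read positions, no score). The submitters' processing notes name Bowtie 0.12.7 without a role; the build is not given in the sources used here, nor is the treatment of multiple hits. Read starts matched ASM294v3: 0 in any library fell on a repeated 45-base sequence. From the deposited positions, a read was placed 67 bp inward of its 5′ end, from the Pol II cross-correlation (0.065), because those of Med7 (0.0045) and the control (0.0035) were weak. Counts were divided by nuclear reads outside the ribosomal DNA. Duplicates (16.0% of Med7, 16.8% of Pol II and 12.7% of control nuclear reads) were kept, and reads are not independent molecules. Per-gene log2 ratios and list medians use a pseudocount of 0.5 reads; within-gene changes use Woolf intervals. Of the genes, 208 have no annotated untranslated region. Median reads per promoter window were 38 for Med7, 49.5 for Pol II and 25 for the control, which limits single-window precision. Named genes were the 10 with the highest lower and the 10 with the lowest upper bound for promoters and bodies, 5 each for the other comparisons, extreme list members, med7 and rpb1. Members, lists and tests were chosen with earlier results of these data known. The heat shock motif was added after the data were seen. The calls were checked on simulated counts. The software was matplotlib 3.10.9, pandas 2.3.3, scipy 1.17.1 and numpy 2.4.6 under Python 3.11.15.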

Additional observations from a re-analysis of the deposited data

Results flagged for a closer look

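Reads outside the windows compared stood above the bead control in 3 cases. Mitochondrial DNA took 23.8% of all Med7 reads and 7.73% of all Pol II reads, against 6.84% of control reads. Ribosomal DNA took 0.382% of nuclear Med7 reads, against 0.262% of nuclear control reads. The Pol II library was below the control there, with 0.083% of its nuclear reads. These are values of 1 library each, and the ratios use nuclear reads outside the ribosomal DNA, so neither enters them.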

How the results depend on the processing

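Scaling moved levels: on the median 1 kb bin the summed ratio was 1.12 in promoters, 0.633 in bodies and, reversed, 0.76 at 3′ ends. High and low counts became 602 and 233 in promoters, 83 and 739 in bodies, and 205 and 681 at 3′ ends. The extreme bins became 1.4 and 0.6 around the start and 0.552 and, reversed, 0.853 around the end. The within-gene values cannot move under scaling. With duplicates collapsed the sums were 1.48 in promoters and 1.05 at 3′ ends, 306 bodies were high, and the peak bins were 1.83 at the start and 1.15 at the end. Without the shift the sums were 1.55 in promoters and 1.06 at 3′ ends, and the peak at the start was 1.85. Without windows that overlap another transcript, fewer genes remained. The sums were then 1.72, 0.825 and 1.12 in promoters, bodies and 3′ ends, with 1181 high and 51 low promoters and 310 high and 59 low 3′ ends. The within-gene change was then high in 718 and low in 24 genes for the promoter (median 1.76), and 184 and 28 for the 3′ end (median 1.44). The narrow windows gave 1.68 in promoters and 1.05 at 3′ ends, and the whole transcript 0.907. Without the 5% of genes with the most Pol II the extreme bins were 2.08 and, reversed, 1.07 around the start and 1.23 and 0.98 around the end. With GC matched to 2 points, chosen after seeing the data, the promoter change was high in 171 and low in 41 genes (median 1.34) and the 3′ end change in 49 and 116 (median 0.936). The causes of these shifts were not tested, beyond the fewer genes and windows that the last settings keep. A minimum of 50 reads, no minimum and each library's own shift moved no summary value out of its range. The last of these was chosen after seeing the data. All 508 recomputed values of the genes named by rank kept their call under every setting. Those genes were picked as extremes, so their calls were likely to hold. The calls of the other named genes, which are list members, med7 and rpb1, were not recomputed. List medians were recomputed relative to the median of all windows, which scaling cannot move. Of these relative medians, 333 recomputed values stayed within the interval of their list and 3 moved. The list medians printed above are not relative and move with the scaling like every other ratio. No paired analysis was possible because each group has 1 library. For the same reason no replicate could be left out, and low-count windows have wide intervals.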

Other observations

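The body ratio varied with transcript length, and not in 1 direction. The median was 1.28 in 725 bodies of transcripts under 1000 bp, 1.37 from 1000 to 1999 bp, 1.21 from 2000 to 2999 bp and 1.11 in 821 of 3000 bp or more. Over the same classes Med7 had 78.7, 78.5, 77.4 and 77.0 RPM per kb and Pol II 61.7, 56.7, 62.7 and 67.9. In the shortest class 18.8% of bodies were high and 20.4% low, and in the longest 2.31% were high and 9.01% low, beside 10.8% high and 9.39% low over all genes.

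The room upstream of a gene went with its promoter ratio. The median was 1.62 where the neighbour lay under 200 bp away, 1.71 from 200 to 499 bp, 2.04 from 500 to 999 bp and 1.99 beyond, while Med7 stayed between 88.6 and 93.4 RPM per kb and Pol II between 44.5 and 54.3. Promoters in the lowest GC quintile had a median ratio of 2.0, with 459 of 928 high, and those in the highest 1.55, with 298 of 1017 high. The control ratios of these 2 quintiles were 1.35 and 1.28.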
